A study of Mus musculus with 8 samples.

Results

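Steroid hormone receptors and the genes that respond to them were followed as 9 genes of the 24419 gene symbols in the count table of 4 mouse endometrial cancer models. They were chosen by name: the receptors Esr1, Esr2, Pgr, Nr3c1 and Nr3c2, and the response genes Greb1, Ihh, Nr2f2 and Fkbp5. All 9 had a row, and 8 of them passed the filter on low counts, with Ihh below it. Bulk RNA of 8 libraries was sequenced, 2 from each model. Every model started from uterus organoids of CAG-Cas9-EGFP mice, in which Cas9 and EGFP are driven by the ubiquitous CAG promoter. The edited organoids were placed in the uterus of nude mice, which lack T cells but keep other host cells, and the study's methods describe female recipients aged 8 weeks, killed for their tumors some 2 months later. The labels instead call the samples tumor organoids. The edits of all 4 models include an sgRNA against Trp53. TPM also overexpressed Myc, TPMCa (TPMPik3ca in the labels) carried in addition a Pik3ca E545K cDNA, and TPMR1 (TPMPik3r1) carried in addition an sgRNA against Pik3r1. TPK was made without introduced Myc. Trp53, edited in every model, lay between 33.2 and 131 CPM (reads of a gene relative to library depth, with edgeR's TMM factors applied). Pik3r1 read 100 and 51.3 CPM in TPMR1 and 99.5 and 188 CPM in TPM, so its RNA level overlapped between the model with the sgRNA and TPM. An edit that shifts the reading frame need not lower the RNA. Myc lay between 323 and 3072 CPM in the models with introduced Myc and at 153 and 92.7 CPM in TPK.

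Steroid receptors are transcription factors that a hormone switches on. Estrogen acts through ERα and ERβ, encoded by Esr1 and Esr2, and in the uterus estrogen drives growth of the epithelium and raises the progesterone receptor, encoded by Pgr. Progesterone then induces Ihh in the epithelium, which signals to Nr2f2 in the stroma, and this axis restrains estrogen-driven growth. Glucocorticoids and mineralocorticoids act through the receptors encoded by Nr3c1 and Nr3c2. Greb1 is a cofactor of ERα and a classical estrogen-induced gene, and Fkbp5, a co-chaperone of the receptors' Hsp90 complex, is a classical gene induced by glucocorticoids, progestins and androgens.

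Total counts lay between 15748396 and 26943611 per library, and a floor of 3 counts equals 0.116 to 0.198 CPM, which covers counting error only. Epithelial markers (Epcam, Cdh1, Krt7, Krt8, Krt18, Krt19 and Pax8) summed to between 2950 and 5518 CPM in TPM and TPK, and to between 6.46 and 73.6 CPM in TPMCa and TPMR1. All 7 were higher in TPM and in TPK than in the mean of TPMCa and TPMR1 by edgeR's test, and Pax8 was at 0 in replicate 1 of TPMR1. In TPMCa and TPMR1 the RNA of these markers therefore goes against a label of endometrial epithelial tumor. The study also typed both models from stained sections, in which it reported glandular structures. In these libraries fewer cells of a type and less RNA per cell cannot be told apart. Markers of steroid-making cells (Star, Cyp11a1, Hsd3b1, Cyp17a1, Nr5a1, Cyp19a1 and Inha) summed to 5088 and 510 CPM in the TPMR1 libraries and to between 11.5 and 30.4 CPM in the other models, and Cyp19a1, the estrogen-forming aromatase, was at 0 in both TPMR1 libraries. Nr5a1, their master regulator, read 752 and 148 CPM in TPMR1 and 5.23 CPM or less elsewhere.

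**Figure D1:**
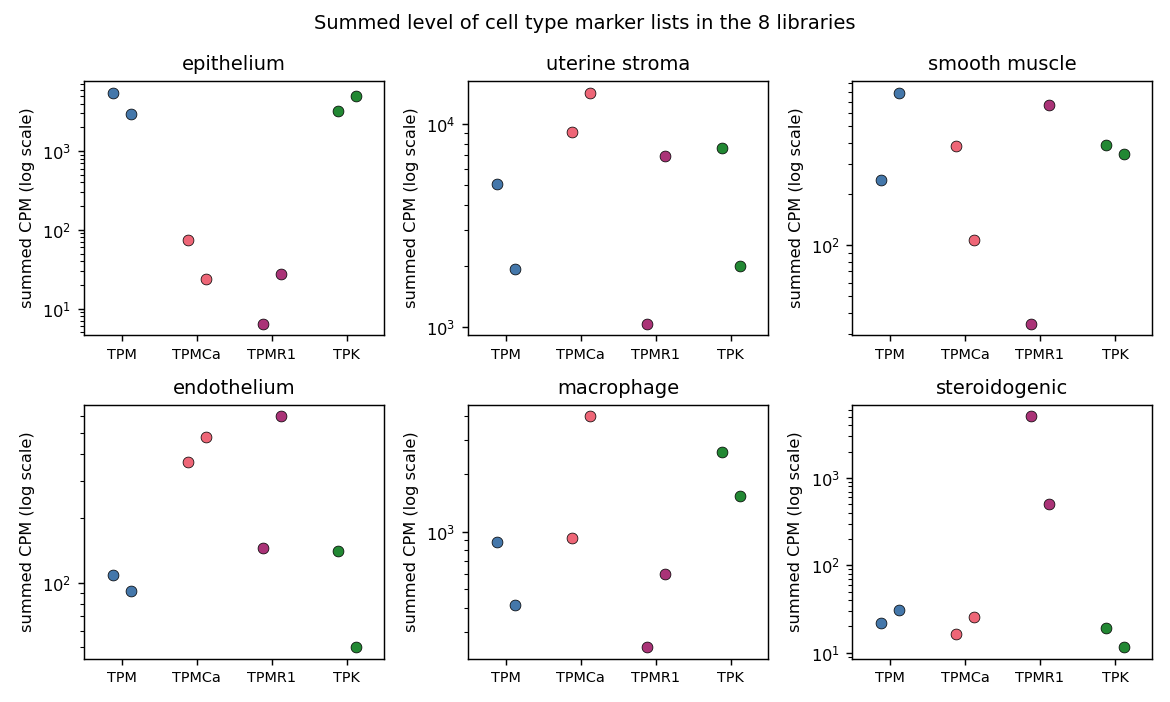
Summed CPM of 6 cell type marker lists (log axes, each with its own range) in the 4 models, with 1 point for each library. Epithelial markers sit at 73.6 CPM or less in the 4 TPMCa and TPMR1 libraries, and markers of steroid-making cells reach 510 CPM or more in the 2 TPMR1 libraries alone.

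Among the 9 genes, Greb1 and Fkbp5 were the ones whose level differed between models by the test, and no receptor passed it. Greb1 was high in TPMR1 alone, and Fkbp5 was lowest in TPK. Esr1 was higher in both TPMR1 and both TPK libraries than in any TPM or TPMCa library, without passing the test. The share of all genes with that split was not counted. Pgr differed up to 86.7-fold between the libraries of 1 model, and Nr2f2 varied least over the 8 libraries. Esr2 and Ihh stayed close to the floor.

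**Figure D2:**
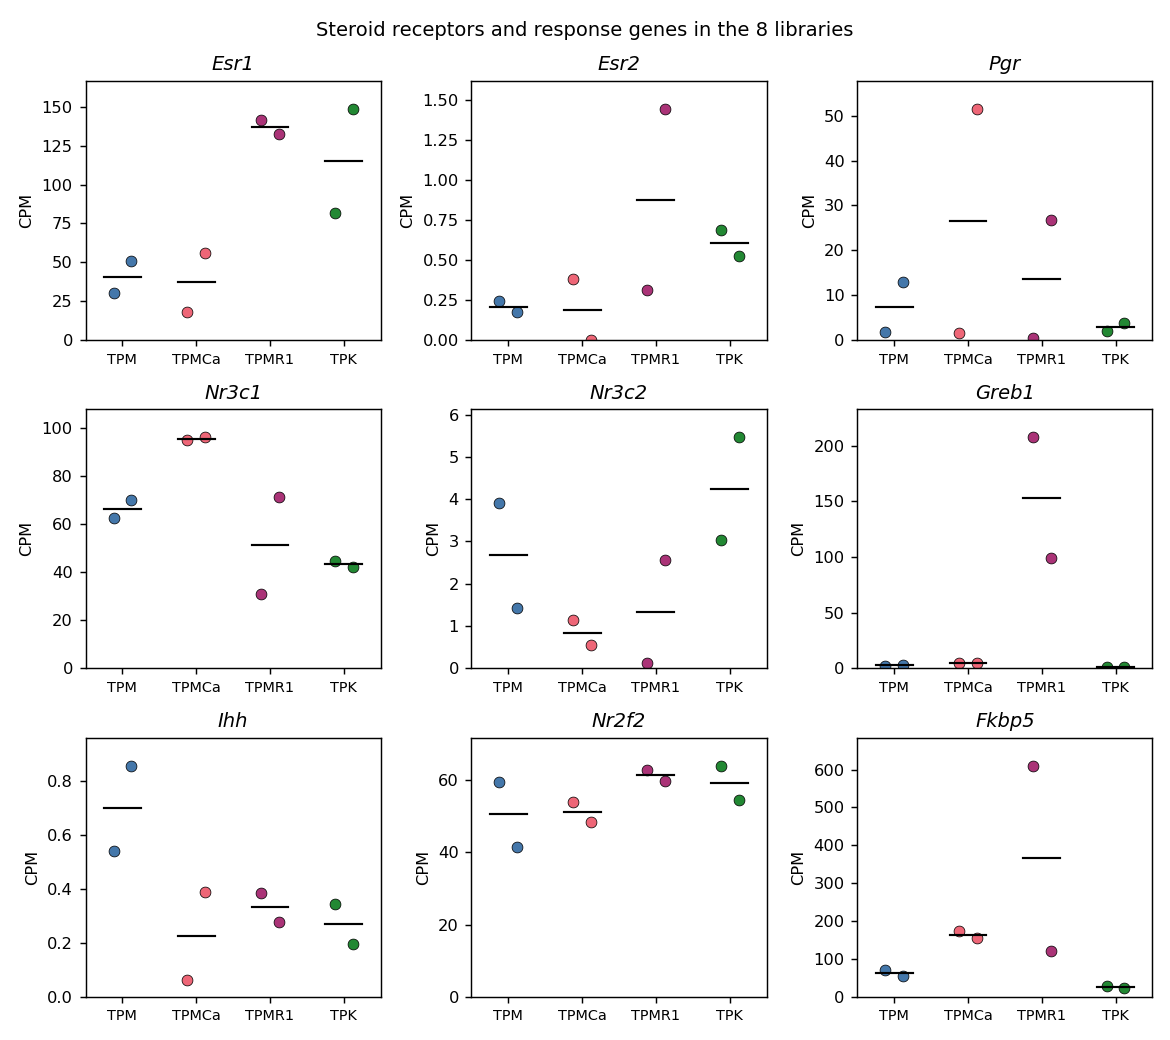
CPM of each of the 9 genes (linear axes from 0, each with its own range) in the 4 models, where points are the 2 libraries and bars are their mean. Greb1 reads 208 and 99.2 CPM in TPMR1 and 5.13 CPM or less elsewhere, and the 2 libraries of TPMR1 lie far apart for Pgr, Nr3c2 and Fkbp5.

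The comparison of TPM with the models that carry a PI3K alteration called 1 of the 8 genes tested lower, Greb1, against a background of 1.45% of all 15875 genes called lower, and 0 higher (background 7.44%). TPK against the same mean called 2 of 8 lower, Greb1 and Fkbp5, against a background of 4.06%, and 0 higher (background 10.3%). Regardless of the test, 2 of the 8 (Greb1 and Fkbp5) had both TPM libraries below all 4 of TPMCa and TPMR1, where 15.5% of all genes did, and 0 had them above (19.4%). The same 2 genes had both TPK libraries below (18.5% of all genes) and Nr3c2 had them above (22.4%). These comparisons share the TPMCa and TPMR1 libraries. For TPK against TPM, edgeR called 0 of the 8 genes and 0% of all genes, 1 of the 8 (Esr1) had an unadjusted p under 0.05, and DESeq2 called 0 of the 8. For TPMR1 against TPMCa edgeR again called 0 of the 8 and 0% of all genes, although 2 of the 8 (Esr1 and Greb1) had an unadjusted p under 0.05, and DESeq2 called 1, Greb1. Over all genes the unadjusted p was under 0.05 for 7.17% in the former comparison and for 11.8% in the latter.

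**Figure D3:**
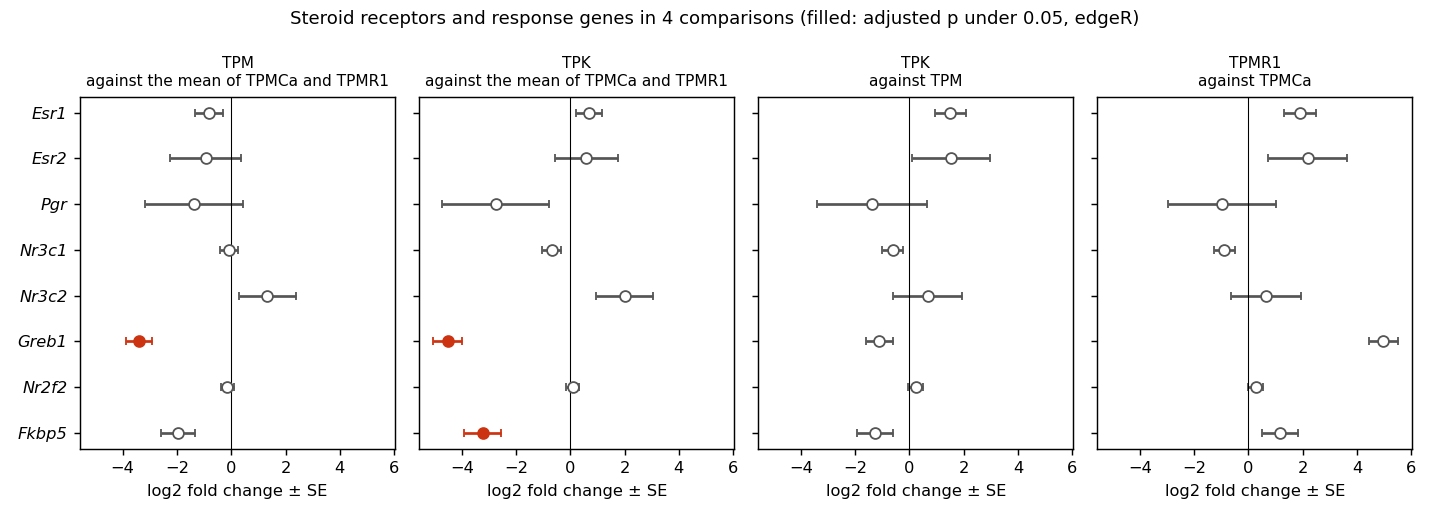
Log2 fold change (edgeR, first model minus second) with its SE for the 8 genes tested in 4 comparisons, filled where the adjusted p was under 0.05. Greb1 is filled in both comparisons with the mean of TPMCa and TPMR1 and Fkbp5 in that of TPK, while Greb1 lies at 4.98 in TPMR1 against TPMCa without passing the adjusted threshold.

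Esr1 (chr10:4611593-5005614, plus strand of GRCm38, which is mm10; GENCODE M21 for this and the other genes) encodes ERα, the main estrogen receptor of the uterus. It read 30.1 and 50.9 CPM in the TPM libraries, 18.2 and 56.1 CPM in TPMCa, 142 and 132 CPM in TPMR1, and 81.6 and 149 CPM in TPK. TPM and TPMCa overlapped, as did TPMR1 and TPK, and the 4 lower libraries did not overlap the 4 higher ones. This split was read from the values themselves, and its share over all genes was not counted. Between single pairs, 52.9% of all genes did not overlap in TPMR1 against TPM and 47.9% in TPK against TPM. For TPMCa the shares were 36.5% against TPMR1 and 62.9% against TPK. The mean was 137 ± 6.44 CPM in TPMR1 against 40.5 ± 14.7 CPM in TPM (SD, n = 2 each), and the fitted log2 fold change of 1.76 (SE 0.59) did not pass edgeR's test (adjusted p = 0.137). Under DESeq2 that difference passed (adjusted p = 0.0387). TPMR1 against TPMCa gave 1.88 (SE 0.59, edgeR adjusted p = 0.378), and TPK against TPM gave 1.51 (SE 0.58, edgeR adjusted p = 0.685). TPK also lay 1.63 above TPMCa on the log2 scale (SE 0.58, edgeR adjusted p = 0.136). Esr1 did not follow the epithelial markers over the models, since TPMR1, with an epithelial sum of 27.4 CPM or less, had Esr1 levels that overlapped those of TPK.

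Esr2 (chr12:76120419-76177259, minus strand) encodes ERβ, which is a minor receptor in the uterus. It had 4 and 3 counts in the TPM libraries, 6 and 0 in TPMCa, 8 and 26 in TPMR1 and 12 and 8 in TPK. The highest level was 1.44 CPM, in replicate 2 of TPMR1, and no order of the models can be read at this depth.

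Pgr (chr9:8899833-8968611, plus strand), the progesterone receptor gene and itself an estrogen target, read 1.80 and 12.8 CPM in TPM, 1.52 and 51.5 CPM in TPMCa, 0.309 and 26.8 CPM in TPMR1, and 1.94 and 3.69 CPM in TPK. The libraries of 1 model differed 7.09-fold in TPM, 33.9-fold in TPMCa, 86.7-fold in TPMR1 and 1.90-fold in TPK, and all 4 models overlapped. No pair of models could be separated: the edgeR fold changes had SEs between 1.82 and 2.15 in the 8 comparisons, and the adjusted p was 0.368 or higher. The order of the means, with TPMCa highest and TPK lowest, is therefore within the spread of the libraries. By staining, the study reported the progesterone receptor as slightly expressed in TPM, TPMCa and TPMR1 and weakly positive in TPK. For the estrogen receptor it reported some positive cells in TPM and weak staining in TPK. That is protein in sections and was not compared with the RNA here. In TPM, TPMCa and TPK the library with more Pgr also had more Esr1, whereas the 2 TPMR1 libraries were 1.07-fold apart in Esr1, with the higher Esr1 in the library with less Pgr. Markers of smooth muscle, which expresses Pgr in the uterus, summed to 34.5 and 671 CPM in the TPMR1 libraries and to 241 and 790 CPM in those of TPM, higher in the library with more Pgr, but to 386 and 107 CPM in TPMCa, lower in it. Uterine stroma markers summed to 1040 and 6977 CPM in TPMR1 and to 9170 and 14280 CPM in TPMCa, higher in the library with more Pgr, and to 5073 and 1928 CPM in TPM, lower in it. In TPK both sums were lower in the library with more Pgr, at 390 and 344 CPM for smooth muscle and 7583 and 2000 CPM for stroma. Their part in the Pgr levels was not tested.

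Nr3c1 (chr18:39410545-39519421, minus strand), the glucocorticoid receptor gene, read 62.6 and 70.1 CPM in TPM, 94.8 and 96.1 CPM in TPMCa, 31.0 and 71.4 CPM in TPMR1, and 44.5 and 42.2 CPM in TPK. Both TPMCa libraries were above every other library and TPK was below every TPM and TPMCa library, while TPMR1 overlapped TPM and TPK. Such separation is common. It was seen in either direction for 61.3% of all genes in TPMCa against TPM and 36.5% in TPMR1 against TPMCa. For TPK it was 47.9% against TPM and 62.9% against TPMCa. The share of genes with TPMCa above all other libraries was not counted. TPK lay below TPMCa by 1.14 on the log2 scale (SE 0.39), which missed the threshold of edgeR's test (adjusted p = 0.126). The same difference of 1.14 passed without replicate 1 of TPMR1 (adjusted p = 0.0218) or without replicate 2 (adjusted p = 0.0237), and passed at 1.17 when only those models were fitted (adjusted p = 0.0423). Without replicate 1 of TPMR1, TPK also lay below the mean of TPMCa and TPMR1, by 0.93 (adjusted p = 0.0267), against 0.69 with it (adjusted p = 0.222). Without replicate 2 of TPMR1, TPMR1 lay below TPMCa by 1.62 (adjusted p = 0.0259), against 0.90 with it (adjusted p = 0.438).

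Nr3c2 (chr8:76899442-77245012, plus strand), the mineralocorticoid receptor gene, was low, at 3.91 and 1.43 CPM in TPM, 1.14 and 0.556 CPM in TPMCa, 0.116 and 2.55 CPM in TPMR1, and 3.03 and 5.47 CPM in TPK. Both TPK libraries lay above all 4 TPMCa and TPMR1 libraries, with a log2 fold change of 2.0 (SE 1.05, edgeR adjusted p = 0.241). Without replicate 2 of TPMR1, whose removal leaves the library at the floor as the lone TPMR1 sample, it was 3.72 (adjusted p = 0.0308), and TPK against TPMR1 then gave 5.11 (adjusted p = 0.0496), compared with 1.68 with it (adjusted p = 0.422). Nr3c2 shares 3.82% of its exon bases with an antisense gene, Gm10649, and whether counting used strand is not given in the sources used here, so the reads of overlapping genes may not be separable.

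The 5 receptors were then set against each other per kb of exon. Esr1 and Nr3c1 together held most of the summed level (CPM per kb) in every library, with Nr3c1 ahead in TPM and TPMCa. The Nr3c1 share was 72.5 and 62.4% in TPM, 87.3 and 55.0% in TPMCa, 27.8 and 40.5% in TPMR1, and 45.7 and 30.8% in TPK. The Esr1 share was 19.6 and 25.5% in TPM, 9.41 and 18.1% in TPMCa, 71.2 and 42.2% in TPMR1, and 47.2 and 61.1% in TPK. Esr1 thus held the larger share in all 4 TPMR1 and TPK libraries, in 2 of them by a small margin, and Nr3c1 in all 4 TPM and TPMCa libraries. Pgr reached 26.5% in replicate 2 of TPMCa and 0.249% in replicate 1 of TPMR1. Esr2 never exceeded 1.87% of the sum. These shares describe the libraries and were not tested. The length of a gene joined its exons over all annotated transcripts, and which receptor leads in a library depends on that choice.

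Greb1 (chr12:16670615-16800886, minus strand) showed the widest range of the 9 genes among those above the floor in all libraries. It read 1.74 and 3.37 CPM in TPM, 5.13 and 4.61 CPM in TPMCa, 208 and 99.2 CPM in TPMR1, and 1.37 and 0.988 CPM in TPK. The TPMR1 libraries stood apart from the other 6, and the other models followed without overlap in the order TPMCa, TPM, TPK. Such separation of 2 models is common. It was seen in either direction for 61.3% of all genes in TPMCa against TPM and for 47.9% in TPK against TPM. The mean was 153 ± 76.6 CPM in TPMR1, 4.87 ± 0.361 CPM in TPMCa, 2.56 ± 1.15 CPM in TPM and 1.18 ± 0.270 CPM in TPK (SD, n = 2 each).

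Between pairs of models, TPMR1 was higher than TPM in Greb1 by 5.90 on the log2 scale (SE 0.57, edgeR adjusted p = 0.00522; background 1.08% of genes called higher). TPK was lower than TPMR1 (log2 fold change -7.01, SE 0.60, edgeR adjusted p = 0.00451), in a comparison that called 3.31% of all genes lower. The first of these calls was lost when only TPM and TPMR1 were fitted (adjusted p = 0.0661). TPMR1 was 31.5 times TPMCa by the ratio of means, with a log2 fold change of 4.98 (SE 0.54) that edgeR did not call after adjustment (adjusted p = 0.287, unadjusted p = 4.66e-05), whereas DESeq2 did (adjusted p = 7.74e-16). Without replicate 2 of TPMR1 edgeR called it too (5.41, adjusted p = 0.00847). TPMCa lay 0.93 above TPM (SE 0.48, edgeR adjusted p = 0.303), and TPK lay below TPMCa by 2.04 (SE 0.50, edgeR adjusted p = 0.0637). That last difference was called by DESeq2 (adjusted p = 0.00376) and without replicate 1 or replicate 2 of TPMR1 (adjusted p = 0.036 and 0.0267).

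Against the mean of TPMCa and TPMR1 on the log scale, Greb1 fell in TPM (log2 fold change -3.41, SE 0.48, edgeR adjusted p = 0.00867) and in TPK (-4.52, SE 0.52, edgeR adjusted p = 0.00377). That mean joins a model at 4.87 CPM to one at 153 CPM, and the pairwise values above show how unequally the 2 contribute. The TPM call was lost without replicate 1 of TPM (-3.03, adjusted p = 0.0681). Both calls were lost when TPMCa and TPMR1 were treated as 1 group (adjusted p = 0.162 for TPM and 0.0865 for TPK). Greb1 shares 7.68% of its exon bases with an antisense gene, Gm48140.

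Beside Greb1, the summed markers of steroid-making cells were high in the same 2 libraries. Greb1 read 208 and 99.2 CPM in replicates 1 and 2 of TPMR1. Cyp11a1, the enzyme that opens steroid synthesis (3764 and 181 CPM), Nr5a1 (752 and 148 CPM) and Star, the cholesterol carrier (467 and 18.4 CPM), were likewise higher in replicate 1. Hsd3b1 (34.96 and 91.0 CPM) and Inha (15.4 and 64.7 CPM) were higher in replicate 2, and Cyp17a1 in replicate 2 (6.61 CPM) was near its level in replicate 2 of TPM (6.52 CPM). The part of these cells in the Greb1 level was not tested. Esr1 differed much less between models than Greb1: per kb, the ratio of Greb1 to Esr1 was 2.09 and 1.07 in TPMR1, 0.402 and 0.117 in TPMCa, 0.0827 and 0.0944 in TPM, and 0.0239 and 0.00947 in TPK. TPK and TPMR1 therefore had Esr1 levels that overlapped and Greb1 to Esr1 ratios at opposite ends.

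Fkbp5 (chr17:28399094-28517527, minus strand) read 69.6 and 55.4 CPM in TPM, 174 and 155 CPM in TPMCa, 610 and 121 CPM in TPMR1, and 28.4 and 23.6 CPM in TPK. TPK was below every other library and both TPM libraries were below all 4 of TPMCa and TPMR1, which overlapped each other. For TPK, no overlap in either direction was seen for 47.9% of all genes against TPM, 62.9% against TPMCa and 57.5% against TPMR1. The share with TPK below every other library was not counted. For TPM below all 4 it was 15.5%. The 2 TPMR1 libraries were 5.03-fold apart, and the higher was again replicate 1. TPK was lower than the mean of TPMCa and TPMR1 (log2 fold change -3.24, SE 0.67, edgeR adjusted p = 0.0249) and lower than TPMR1 (-3.81, SE 0.73, edgeR adjusted p = 0.0272). Both calls were lost on leaving out any 1 library of TPK, TPM or TPMCa, with adjusted p-values between 0.0517 and 0.194 and fold changes between -3.95 and -3.10, and also when only the models compared were fitted (adjusted p = 0.0503 and 0.103). They held without either TPMR1 library (-2.44 and -3.60 for the former, adjusted p = 0.0034 and 0.00137; -2.22 and -4.55 for the latter, adjusted p = 0.0143 and 0.00396). TPM lay below the same mean by 1.97 (SE 0.62, edgeR adjusted p = 0.11), a difference that DESeq2 called (adjusted p = 0.0101), as edgeR did without replicate 1 of TPMR1 (-1.18, adjusted p = 0.0265) or without replicate 2 (-2.34, adjusted p = 0.00382). Between pairs, TPMR1 lay 2.55 above TPM (SE 0.69, edgeR adjusted p = 0.0867) and TPK lay below TPMCa by 2.66 (SE 0.69, edgeR adjusted p = 0.0714), and DESeq2 called both (adjusted p = 0.00355 and 0.00158). TPMCa lay 1.39 above TPM (SE 0.66, edgeR adjusted p = 0.272), which edgeR called without replicate 1 or replicate 2 of TPMR1 (adjusted p = 0.0218 and 0.0234).

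Over the 8 libraries Nr3c1 and Fkbp5 had a Pearson r of 0.02 (log2 CPM), with replicate 1 of TPMR1 apart from the rest. Outside that library both genes had the same order, TPK lowest, then TPM, then replicate 2 of TPMR1, then TPMCa. Per kb, the ratio of Fkbp5 to Nr3c1 was 0.903 and 0.642 in TPM, 1.49 and 1.31 in TPMCa, 16 and 1.38 in TPMR1, and 0.518 and 0.455 in TPK. TPMR1 replicate 1 combined the highest Fkbp5 level of the 8 libraries with the lowest Nr3c1 level. It was also the library with 5088 CPM of steroid-making cell markers and with Nr3c2 at the floor. The part of those cells in the Fkbp5 level was not tested.

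Of the 250 bases upstream of the annotated starts, 10 windows of 8 genes were read from the RefSeq promoter table (GRCm38.p6). Windows on the chromosome of Nr3c1 were left out, so Nr3c1 has none and the counts over all windows lack them. Those of Greb1 and Fkbp5 are shown because these were the genes called. Capitals mark GGTCA or its reverse complement TGACC, the 5-base arm of an estrogen response element, in the direction of the gene. The outer Greb1 start (chr12:16800887-16801136, minus strand), the inner Greb1 start (chr12:16757240-16757489, minus strand) and the Fkbp5 start (chr17:28486150-28486399, minus strand) read as follows.
Greb1 outer: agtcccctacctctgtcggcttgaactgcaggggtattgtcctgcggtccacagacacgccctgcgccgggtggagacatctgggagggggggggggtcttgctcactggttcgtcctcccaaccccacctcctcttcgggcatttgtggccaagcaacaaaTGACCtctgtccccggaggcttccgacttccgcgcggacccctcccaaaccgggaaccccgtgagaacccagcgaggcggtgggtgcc
Greb1 inner: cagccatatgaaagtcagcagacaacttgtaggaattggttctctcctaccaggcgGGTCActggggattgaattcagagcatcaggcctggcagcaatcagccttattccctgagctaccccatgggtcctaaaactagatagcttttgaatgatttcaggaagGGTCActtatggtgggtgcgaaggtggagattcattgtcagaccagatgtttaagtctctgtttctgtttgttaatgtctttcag
Fkbp5: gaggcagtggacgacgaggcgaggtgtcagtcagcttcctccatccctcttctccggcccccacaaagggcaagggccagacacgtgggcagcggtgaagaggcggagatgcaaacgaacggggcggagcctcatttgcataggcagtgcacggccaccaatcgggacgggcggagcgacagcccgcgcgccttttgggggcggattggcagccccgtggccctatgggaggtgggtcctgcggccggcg
The outer Greb1 window held 1 arm, 88 bases before the start, and the inner window held 2, at 194 and 85 bases before it. Such an arm on either strand is common, being present in 35.2% of all 32851 windows of this length. The full palindrome GGTCANNNTGACC was in 0 of the 10 windows and in 0.0639% of all windows. The arm of a glucocorticoid or progesterone element, GAACA on either strand, was in 36.2% of all windows and in 1 of the 10, upstream of Esr1, and the full form GNACANNNTGTNC was in 0 of the 10 and in 0.387% of all. The Fkbp5 window held none of these letters. Arms were also found in the windows of Esr2 and Nr3c2, with 2 each, and in none of those of Pgr, Ihh and Nr2f2. For Nr2f2 the bases after the RefSeq start were not found in a GENCODE M21 transcript, so that window is less sure.

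The progesterone axis of the uterus was measured by Ihh and Nr2f2. Ihh (chr1:74945315-74951672, minus strand), the epithelial signal, had 9 and 15 counts in TPM, 1 and 7 in TPMCa, 10 and 5 in TPMR1 and 6 and 3 in TPK, and was not tested. Both TPM libraries were above the other 6, at 0.541 and 0.857 CPM against 0.389 CPM or less, but with at most 15 counts. Nr2f2 (chr7:70351944-70366735, minus strand), a nuclear receptor of stroma, veins and smooth muscle, read 59.5 and 41.5 CPM in TPM, 53.9 and 48.3 CPM in TPMCa, 62.9 and 59.8 CPM in TPMR1, and 64 and 54.4 CPM in TPK. Its log2 fold changes lay between -0.15 and 0.28 in the 8 comparisons, with SEs between 0.23 and 0.27. Nr2f2 was thus the most even of the tested genes, although stroma marker sums ranged from 1040 to 14280 CPM. Nr2f2 shares 7.46% of its exon bases with the opposite-strand gene B130024G19Rik.

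Other genes of these pathways were taken from 5 lists of known receptor partners and hormone-responsive genes, some of which share genes with each other and with the 9 above. In the glucocorticoid response list, 4 of 22 genes were lower in TPM than in the mean of TPMCa and TPMR1 and 6 of 22 were lower in TPK, with 0 higher in either. The median log2 fold change was -1.08 in TPM and -1.71 in TPK, where the medians of all tested genes were -0.022 and -0.002. The TPM count was 0 without either TPM library and 2 without either TPK library or replicate 1 of TPMCa, the TPK count was 1 or 0 without replicate 1 or 2 of TPK, and DESeq2 called 7 and 11. Over all genes 1.45% were called lower in TPM and 4.06% in TPK. The 5 endothelial markers summed to 109 and 91.7 CPM in TPM and 141 and 50.1 CPM in TPK, below the 146 to 599 CPM of TPMCa and TPMR1. In each comparison edgeR called 0 of the 5, 4 of them were lower with an unadjusted p under 0.05, and DESeq2 called 4 lower. The epithelial markers went the opposite way, and the steroid-making markers were high in TPMR1. The part of these cells in the glucocorticoid list was not tested. Zbtb16, a transcription factor strongly induced by glucocorticoids and progestins, read 0.241 and 0.514 CPM in TPM, 34.6 and 28.6 CPM in TPMCa, 129 and 19.2 CPM in TPMR1, and 0.914 and 0.527 CPM in TPK. It fell in TPM (log2 fold change -6.97, SE 1.06, edgeR adjusted p = 0.011) and in TPK (-6.05, SE 0.999, edgeR adjusted p = 0.0122). Hif3a, a hypoxia-pathway factor, fell in TPK (-4.47, SE 0.72, edgeR adjusted p = 0.0114), with 0.286 and 0.329 CPM there.

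Klf9, a transcription factor, read 20.9 and 34.5 CPM in TPM and 21.2 and 16.9 CPM in TPK, below the 66.8 to 123 CPM of the TPMCa and TPMR1 libraries, and fell in both comparisons (log2 fold changes -1.55 and -2.09, edgeR adjusted p = 0.0464 and 0.0154). Per1, a clock gene, fell in TPK (-2.30, SE 0.41, edgeR adjusted p = 0.0161) and not by the test in TPM (-1.34, adjusted p = 0.0877). Angptl4, an inhibitor of lipoprotein lipase, fell in TPM (-2.62, SE 0.34, edgeR adjusted p = 0.00694) and in TPK (-1.71, SE 0.33, edgeR adjusted p = 0.0192). Tsc22d3, a classical glucocorticoid-induced gene named here for that role, differed from Fkbp5 in TPMR1, where its level overlapped that of TPM. It read 28.8 and 46.0 CPM in TPMR1, 143 and 95.1 CPM in TPMCa and 50.7 and 27.5 CPM in TPM. The TPK libraries read 53.4 and 31.7 CPM. Against the mean its log2 fold changes had the sign of those of Fkbp5, at -0.77 in TPM and -0.646 in TPK. Neither passed the test (edgeR adjusted p = 0.292 and 0.308).

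**Figure D4:**
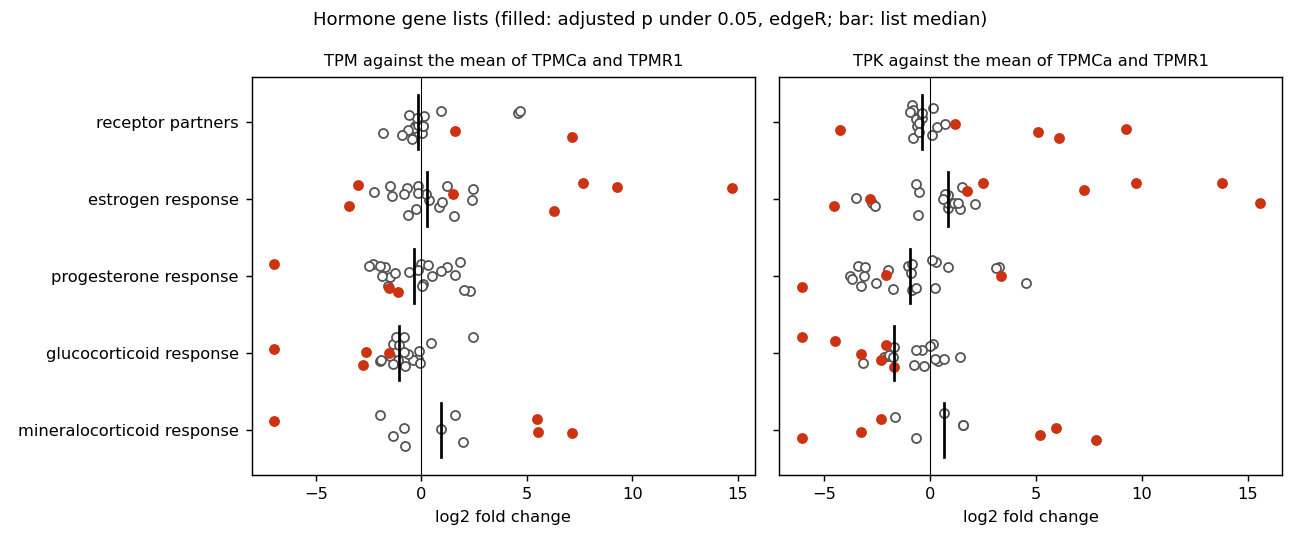
Fitted log2 fold change of each tested gene in 5 hormone gene lists (edgeR, 1 point a gene, spread vertically at random), filled where the adjusted p was under 0.05, with a bar at the list median. In the glucocorticoid response list all filled points lie below 0 in both comparisons, while the estrogen response list has filled points on both sides. Fitted values of genes at 0 in 1 side, such as Sprr2f and Agr2, depend on the prior count.

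The estrogen response list, which holds Greb1 and Pgr, moved in both directions: 5 of 24 tested genes were higher and 2 lower in TPM, while in TPK the test called 6 higher and 2 lower, with medians of 0.28 and 0.86. Without replicate 1 of TPM the TPM counts were 2 and 0, without replicate 2 of TPM or replicate 1 of TPMCa 1 was lower, and 3 were higher without the latter. In TPK 1 was lower without either TPK library and 4 without replicate 1 of TPMR1. DESeq2 called 6 higher and 2 lower in TPM and 7 higher and 4 lower in TPK. Over all genes edgeR called 7.44% higher and 1.45% lower in TPM, and 10.3% and 4.06% in TPK. The higher ones include genes of uterine epithelium. Muc1, an epithelial mucin, read 183 and 130 CPM in TPM and 202 and 405 CPM in TPK, against 2.94 CPM or less in TPMCa and TPMR1. Muc1 rose in TPM (log2 fold change 6.31, SE 0.45, edgeR adjusted p = 0.0011) and in TPK (7.26, SE 0.47, edgeR adjusted p = 0.000829). Ltf, the estrogen-induced lactoferrin of the mouse uterus, read 8447 and 6820 CPM in TPK and 58.8 CPM or less in TPMCa and TPMR1 (9.73, SE 1.29, edgeR adjusted p = 0.00592). In TPM, Ltf read 2276 and 1387 CPM and was called too (7.67, SE 1.2, edgeR adjusted p = 0.0122). Sprr2f and Agr2 had 0 counts in all 4 TPMCa and TPMR1 libraries. With 3 counts in each of those libraries as the floor, Sprr2f, at 256 and 122 CPM in TPM, was at least 761-fold higher in TPM by its lower library and at least 1180-fold by the mean of both. Agr2, at 134 and 532 CPM in TPK, was at least 835-fold higher there by its lower library and at least 2080-fold by the mean. By the lower library, Sprr2f was also at least 574-fold higher in TPK and Agr2 at least 16.8-fold higher in TPM. The lower ones were Greb1 and Slc7a2, an arginine transporter (log2 fold change -3.03 in TPM, SE 0.52, edgeR adjusted p = 0.0172). Slc7a2 fell in TPK as well (-2.825, SE 0.516, edgeR adjusted p = 0.0171). The epithelial markers moved the same way as the higher genes, at 2950 to 5518 CPM in TPM and TPK against 73.6 CPM or less, and their part was not tested. TPMR1 thus combined the highest Greb1 with Muc1 at 1.47 and 2.94 CPM and Ltf at 0.503 and 4.66 CPM.

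In the mineralocorticoid response list, 3 of 11 genes were higher and 1 lower in TPM, against 3 in each direction in TPK, with medians of 0.95 and 0.67. In TPM 1 was higher without either TPM library or without replicate 1 of TPMCa, and the lower count was 0 without either TPM library and 2 without either TPMR1 library. In TPK 1 was higher without replicate 2 of TPK and 5 without either TPMR1 library, and 0 were lower without either TPK library. DESeq2 called 3 in each direction in TPM and 4 higher and 3 lower in TPK. The background was again 7.44% higher and 1.45% lower in TPM and 10.3% and 4.06% in TPK. The higher genes in both comparisons were the 3 subunits of the epithelial sodium channel. Scnn1a rose in TPM (log2 fold change 5.53, SE 0.63, edgeR adjusted p = 0.00433) and in TPK (5.17, SE 0.625, edgeR adjusted p = 0.004345). Scnn1b rose in TPM (5.46, SE 1.13, edgeR adjusted p = 0.0323) and in TPK (5.96, SE 1.15, edgeR adjusted p = 0.0199). Scnn1g had at most 2 counts in any TPMCa or TPMR1 library. It read 3.31 and 22.9 CPM in TPK (edgeR adjusted p = 0.00904) and 7.04 and 8.86 CPM in TPM (edgeR adjusted p = 0.0138). The lower genes, Zbtb16, Per1 and Fkbp5, are also in the glucocorticoid list. The epithelial markers again moved with the channel genes, and their part was not tested.

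In the progesterone response list, 0 of 24 genes were higher and 3 lower in TPM, whereas TPK had 1 higher and 2 lower, with medians of -0.37 and -0.96. In TPM 2 were higher without either TPMR1 library, 1 was lower without either TPK library or replicate 1 of TPMCa, and 0 were lower without either TPM library. In TPK 0 were called in either direction without either TPK library, 0 were higher without replicate 1 of TPMCa, 4 were lower without its replicate 2, 2 were higher without replicate 1 of TPMR1, and 3 were higher and 6 lower without replicate 2 of TPMR1. DESeq2 called 1 higher and 3 lower in TPM and 4 higher and 9 lower in TPK. The backgrounds were the same (7.44% higher and 1.45% lower in TPM, 10.3% and 4.06% in TPK). At 24 genes, the counts of 0 and 1 higher lie too close to these shares for a reading. Fst, the activin-binding follistatin, rose in TPK (log2 fold change 3.36, SE 0.57, edgeR adjusted p = 0.0129). Cited2, a transcriptional co-regulator, fell in TPM (-1.13, SE 0.25, edgeR adjusted p = 0.0394), beside Zbtb16 and Klf9.

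Among 19 tested receptor partners, 2 were higher and 0 lower in TPM, whereas TPK had 4 higher and 1 lower, with medians of -0.16 and -0.39. DESeq2 called 4 higher and 1 lower in TPM and 4 higher and 2 lower in TPK. The backgrounds were again 7.44% higher and 1.45% lower in TPM and 10.3% and 4.06% in TPK, and the 2 higher in TPM and the 1 lower in TPK lie near them. The TPM count was 0 without replicate 1 of TPM and the higher count in TPK was 1 without either TPK library. The lower gene of TPK was lost without any library of TPK or TPM or without replicate 1 of TPMCa, and 2 were lower without replicate 2 of TPMR1. The p160 coactivators, corepressors and Hsp90 chaperones of the list were not among those called. Foxa2, a gland transcription factor, was at 0 in both TPMR1 libraries. It rose in TPM (log2 fold change 7.16, SE 0.92, edgeR adjusted p = 0.00986) and in TPK (9.24, SE 0.95, edgeR adjusted p = 0.00432). Foxa1, a pioneer factor of ERα, rose in TPK (6.08, SE 1.16, edgeR adjusted p = 0.0192). In TPM it just missed the threshold (4.66, SE 1.14, edgeR adjusted p = 0.0532). Foxa1 read 0.0387 and 0.0555 CPM in TPMR1, at or under 1 count, in the libraries with the highest Greb1. Esrra, an orphan receptor of energy metabolism, rose in TPM (1.58, SE 0.20, edgeR adjusted p = 0.00589) and in TPK (1.2, SE 0.198, edgeR adjusted p = 0.0121). Esrrg, its relative, rose in TPK (5.10, SE 1.25, edgeR adjusted p = 0.0411). Gper1, a membrane estrogen receptor, fell in TPK (-4.25, SE 0.85, edgeR adjusted p = 0.0225). Esrrg and Gper1 did not pass in TPM (edgeR adjusted p = 0.0719 and 0.179). For TPK against TPM and for TPMR1 against TPMCa, edgeR called 0 genes of any of the 5 lists, while between 1 and 4 genes of each list had an unadjusted p under 0.05. DESeq2 called 1 gene of the estrogen list (higher) and 1 of the mineralocorticoid list (lower) in the former, and 1 to 3 genes of each list in the latter. Without replicate 2 of TPMR1, edgeR called 1 to 5 genes of each list in TPMR1 against TPMCa.

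Across the 8 libraries the levels of Greb1 and Fkbp5 (log2 CPM) had a Pearson r of 0.81, those of Nr3c2 and Fkbp5 of -0.88, and those of Esr1 and Nr3c1 of -0.68, whereas Esr1 and Greb1 had 0.40 and Pgr and Esr1 had 0.05. These are descriptions over 8 libraries that fall into 4 models and share their scaling. In replicate 1 of TPMR1, where Fkbp5 was highest, Nr3c2 had 3 counts. Its log2 level there depends on the prior count of 2. For each tested gene the 3 highest r were then picked among 10420 genes with a mean log2 CPM of at least 3. Picking the highest of so many over 8 libraries gives a high r by itself. The genes most like Greb1 were Zfp280b (r = 0.982), Cnot7 (0.978) and Chd4 (0.978). Those most like Fkbp5, by the same measure, were Mapk8ip3 (r = 0.987), Mdh2 (0.984) and Bag6 (0.973). Those most like Esr1 were Efcab14 (r = 0.964), Pwwp2a (0.948) and Tmem38a (0.937), and those most like Pgr were Rgs19 and Camk2d (both 0.94) and Renbp (0.918). For Nr3c1 they were Dusp2 (r = 0.989), Hus1 (0.978) and B4galt2 (0.971), for Nr3c2 Tnfrsf23 (0.975), Meis1 (0.973) and Socs2 (0.964), and for Nr2f2 2310009B15Rik (0.945), Klc2 (0.888) and Ncoa4 (0.885). For Esr2, with at most 26 counts in a library, they were Synpo (r = 0.963), 2810474O19Rik (0.953) and Fam168a (0.894).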

How the data were processed

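The authors aligned reads trimmed by the sequencing company to mm10 with STAR, and the deposited table holds raw counts per gene symbol for 8 libraries. The counter and annotation are not given in the sources used here. A second deposited table, normalized with DESeq2 by the authors, was not used. Models and replicates were taken from the labels, where n is 2 mice per model by the study's methods. Counts were normalized by TMM in edgeR 4.0.16 (R 4.3.3, limma 3.58.1) and filtered by filterByExpr, which left 15875 genes. A quasi-likelihood fit with the model as its term covered all 8 libraries, Benjamini-Hochberg adjustment ran over all genes, and an adjusted p under 0.05 was called. SEs are the log2 fold change divided by the square root of F. Log2 CPM used a prior count of 2. Exon lengths came from GENCODE M21. The code was tested on simulated data.

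The genes, lists, comparisons and rule for named genes were chosen with earlier results of these data known. All 9 genes were named, as were up to 5 called genes of each hormone list with the smallest p, the 3 genes with the highest Pearson r to each tested gene (mean log2 CPM of at least 3), and genes needed for their role. No permutation test was run, since 2 libraries against 2 cannot give a p under 0.05. Alternatives were the Wald test of DESeq2 1.42.0, its size factors, library size alone, other filters, fewer models in the fit, a replicate block, TPMCa and TPMR1 as 1 group and leaving out each library. Some engineered alterations are not reported here.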

Additional observations from a re-analysis of the deposited data

How the results depend on the processing

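The count of genes called among the 8 tested was 1 for TPM and 2 for TPK against the mean of TPMCa and TPMR1, 0 for TPK against TPM, 0 for TPMR1 against TPMCa, and 3 over the 6 pairs of models. DESeq2 gave 2 for TPM, 1 for TPMR1 against TPMCa and 8 over the pairs, and left the others at 2 and 0. Over all genes DESeq2 called 3091 against 1411 by edgeR for TPM, 4470 against 2287 for TPK, 245 against 0 for TPK against TPM, and 806 against 0 for TPMR1 against TPMCa. Fitting only the models compared gave 1 for TPK against the mean, and treating TPMCa and TPMR1 as 1 group gave 0 for TPM and 1 for TPK. Leaving out 1 library gave 0 to 2 for TPM (0 without TPM replicate 1, 2 without either TPMR1 library), 1 to 3 for TPK (1 without any library of TPK, TPM or TPMCa), 0 for TPK against TPM, 0 to 3 for TPMR1 against TPMCa (3 without TPMR1 replicate 2), and 2 to 12 over the pairs (7 without TPMR1 replicate 1, 12 without replicate 2). A lone library was assumed to vary like the other models. The cause was not tested. Size factors, library size alone and other filters changed none of these counts.

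The replicate numbers did not pair the libraries, since differences between replicates 1 and 2 had correlations of -0.069 to -0.008 between models, and with the replicate block the counts were again 1, 2, 0, 0 and 3, while genes called for TPM fell from 1411 to 1038. Over 64 results of single genes, 962 alternative values kept the side of the threshold in 918 cases, lost a call in 18 and gained one in 26. In 29 cases the direction changed, each for a value that was not called. Greb1 was called in 14 of 16 settings for TPM and in 15 of 16 for TPK, and Fkbp5 in 9 of 16 for TPK. Depth limits Esr2 and Ihh, and 2 libraries per model limit Pgr.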
